A study of Rattus norvegicus with 32 samples.

Results

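Gene expression in 8 rat livers labelled as long-term survivors was compared with that in 11 livers labelled post-transplant, from work on transplanting macrosteatotic rat livers, that is, livers whose hepatocytes hold large droplets of fat. Both groups were chosen by their labels alone, and the 19 libraries are part of 32 in the series, which holds 8 long-term survivor, 12 post-transplant and 12 pre-transplant samples. All 3 groups came from liver of male Lewis rats, an inbred strain, and polyadenylated RNA was sequenced. The labels name no genetic change, no treatment, no fat content, no time since transplantation, no age and no batch, and they do not say whether a long-term survivor liver is the graft of a rat that was also sampled earlier. Nor do they state that the libraries are separate animals, and the p-values therefore cover only the spread among these samples, part of which may be technical. A further post-transplant sample was not used because its column header stands on 2 columns, and 9 pre-transplant libraries are shown as reference levels with no test.

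The values were taken as FPKM, fragments scaled to gene length and a library size, after rescaling by median-of-ratios factors. The library size behind the deposited values was 0.7828 to 1.41 times the reads in genes, so it was not simply the read total. How it was set is not given in the sources used here. Rescaling factors were 0.911 to 0.926 in long-term survivor and 1.052 to 1.090 in post-transplant libraries, so rescaling acted mostly between the groups. Reads in genes, recovered from the steps of the values, numbered 17401155 to 18482059 in long-term survivor and 15802817 to 18464388 in post-transplant libraries. Long-term survivor replicates 3 and 7, and replicates 4 and 8, were far closer to each other (chi-square per degree of freedom 3.049 and 3.334) than the other 26 pairs of that group (30.06 to 125.8) and the 55 post-transplant pairs (49.39 to 400.1). Whether a pair came from 1 animal was not tested. Each library was counted on its own, and the main count is also given with each pair averaged. In the long-term survivor columns 373 of 1218 unannotated genes were empty, so these columns may come from a processing run of their own, and run and group cannot be told apart. Markers of hepatocytes led every library, with Alb, which encodes serum albumin, at 33772 FPKM or more in long-term survivors and 9936 FPKM or more in post-transplant livers. Prss1, a marker of pancreas, was at 0 in all 19 libraries, and Adipoq, a marker of fat cells, was at most 0.286 FPKM.

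A graft that is taken out, stored cold and reperfused with blood meets an injury in which resident macrophages and arriving leukocytes release cytokines. Hepatocytes answer interleukin 6 and interleukin 1 by making acute phase proteins, and in the same state they lower many genes of drug, bile acid and lipid metabolism. Lost tissue is replaced by division of mature hepatocytes, and stellate cells deposit collagen matrix, which can later be removed.

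Long-term survivor livers held less RNA of myeloid cell markers, matrix, acute phase proteins and the cell cycle than post-transplant livers, and more RNA of hepatocyte metabolism, of mitochondrially encoded genes and of bile duct markers. By limma's moderated test, 4538 of 11494 genes (39.5%) differed at the adjusted p threshold of 0.05. In long-term survivors 2383 of these were higher (20.7%) and 2155 lower (18.7%). At least 2-fold differences were found for 432 genes higher (3.76%) and 526 lower (4.58%), and in 502 genes (4.37%) the 8 long-term survivor libraries did not overlap the 11 post-transplant ones, all lying above in 204 (1.77%) and below in 298 (2.59%). With the close pairs averaged 3739 genes passed. Without rescaling, where the median of all genes was -0.17 in place of 0.01, 1097 genes were higher and 4109 lower. A gene was tested where at least 8 of the 19 libraries had 1 FPKM or more, so members low in both groups were left out, and members high in 1 group could pass through that group alone. The counts of a list over its tested members therefore lean toward those that differ, and some lists are also given with no filter. Every list count below stands against 20.7% of all genes tested higher and 18.7% lower. Changes below are log2 differences of long-term survivor minus post-transplant on the log2(rescaled FPKM + 1) scale ± SE, which understate the change of genes with low values, and adjusted p-values are limma's over all 11494 genes. Where a list below has 0 members in a direction, it also had 0 at an unadjusted p under 0.05 and 0 by voom, unless other counts are given. In whole tissue, fewer cells of a type and less RNA per cell cannot be told apart.

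**Figure D1:**
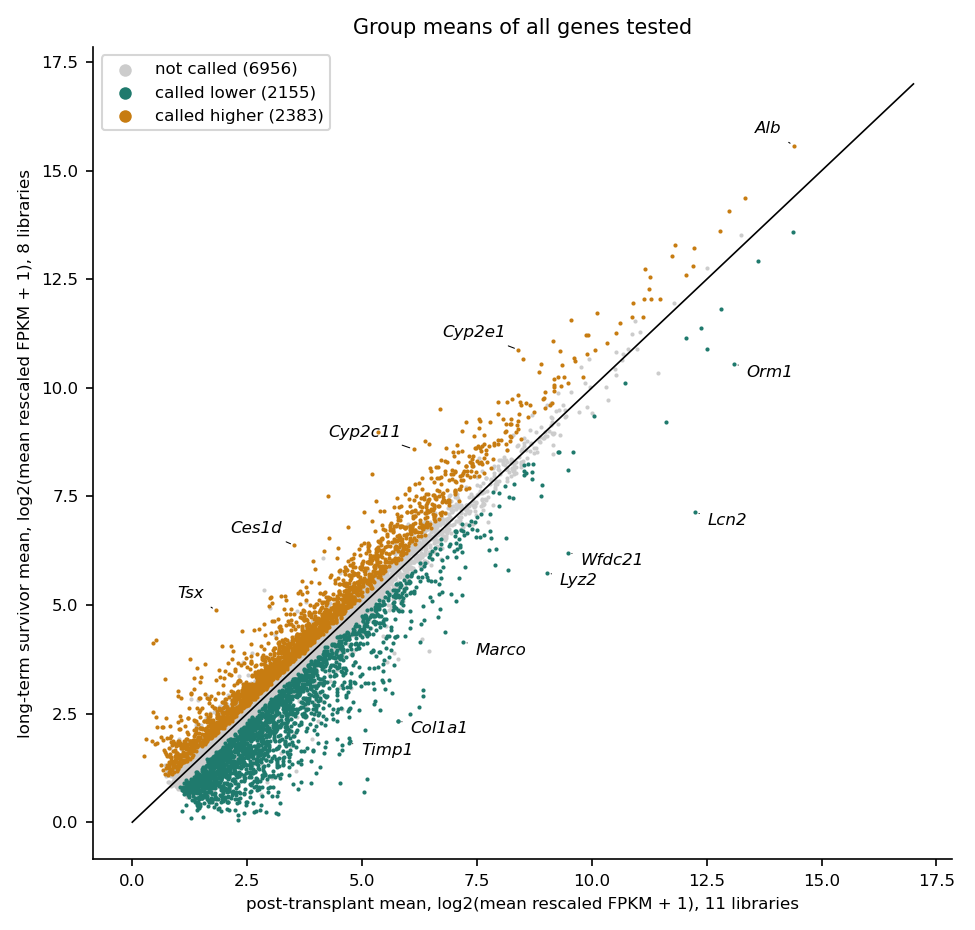
Group means of the 11494 genes tested, as log2(mean rescaled FPKM + 1), in 11 post-transplant libraries (horizontal axis) and 8 long-term survivor libraries (vertical axis). Orange points were called higher in long-term survivors (2383), green points lower (2155) and grey points were not called, and the line marks equal levels. Lcn2, Wfdc21, Lyz2 and Marco lie far below the line and Cyp2c11, Cyp2e1 and Ces1d above it.

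The named genes with the greatest fall encode secreted proteins of inflammation, proteins of leukocytes and matrix proteins. Lcn2 (ENSRNOG00000013973, chromosome 3, 11414186 to 11417546), the gene of lipocalin 2, which binds bacterial iron carriers, lay at 3.89 to 405 FPKM with a median of 28.0 in long-term survivors, and at 25.3 to 8884 with a median of 5153 after transplantation. The change was -5.75 ± 1.02 (adjusted p = 0.000366), and 10 of 11 post-transplant libraries lay above every long-term survivor, the exception being post-transplant replicate 9 at 25.3 FPKM. Among long-term survivors, replicates 3, 7 and 1 stood highest with 396, 405 and 211 FPKM. A2m (ENSRNOG00000045772, chromosome 4, 154423209 to 154472924), which encodes the protease inhibitor alpha-2-macroglobulin, an acute phase protein in rats, lay at a median of 0.538 FPKM in long-term survivors (range 0.152 to 4.61) against 28.5 in post-transplant livers (range 2.26 to 84.3), a change of -3.85 ± 0.50 (adjusted p = 3.85e-05). Its neighbour LOC100911545, an A2m-like gene that may share reads with it, changed by -3.68 ± 0.61, so the split between them is uncertain. Wfdc21 (ENSRNOG00000029668, chromosome 10, 71047310 to 71053191) lay between 32.1 and 209.6 FPKM in long-term survivors (median 50.7) and between 132 and 1234 in post-transplant livers (median 702), a change of -3.36 ± 0.37 (adjusted p = 1.12e-05). Further ones were S100a8 (-3.10 ± 0.60), Plac8 (-3.07 ± 0.48), Col1a1 (-3.06 ± 0.51), S100a9 (-3.05 ± 0.53) and Gpnmb (-2.95 ± 0.44), with adjusted p from 0.000103 to 0.000731.

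The 10 with the greatest rise encode mostly enzymes and secreted proteins of the hepatocyte. Cyp2c11 (ENSRNOG00000052810, chromosome 1, 257970345 to 258004434), a male-specific P450 enzyme that dominates in rat liver, lay at 5.20 to 766 FPKM with a median of 427 in long-term survivors, and at 0.515 to 601 with a median of 6.49 after transplantation, a change of 3.95 ± 1.198 (adjusted p = 0.0138). The groups overlapped at both ends, because long-term survivor replicates 3 and 7 had 5.20 and 6.28 FPKM while post-transplant replicate 9 had 601. Ces1d (ENSRNOG00000015519, chromosome 19, 15033108 to 15239821), a carboxylesterase that hydrolyses esters and lipids, lay at a median of 88.8 FPKM in long-term survivors (range 43.0 to 106.2) against 5.12 in post-transplant livers (range 0.916 to 41.3), a change of 3.58 ± 0.52 (adjusted p = 8.36e-05). Those groups did not overlap. Serpina6 (ENSRNOG00000009438, chromosome 6, 127523906 to 127534247), which encodes corticosteroid-binding globulin of plasma, lay between 210.0 and 587 FPKM in long-term survivors (median 411) and between 3.48 and 338 in post-transplant livers (median 45.3), a change of 3.31 ± 0.72 (adjusted p = 0.00164). Tsx (ENSRNOG00000002925, chromosome X, 74273182 to 74283819) lay at 9.12 to 72.5 FPKM with a median of 17.98 in long-term survivors, and at 0.117 to 14.4 with a median of 0.582 after transplantation, a change of 3.31 ± 0.52 (adjusted p = 0.000157), with post-transplant replicate 2 as the highest of its group. The others were AABR07047899.1 (5.41 ± 0.89), AABR07048463.1 (4.01 ± 0.78), LOC100360095 (3.88 ± 1.10), Dhrs7l1 (3.66 ± 0.70), AABR07048474.1 (3.41 ± 0.79) and Sdr16c6 (3.02 ± 0.55), with adjusted p up to 0.00922 for LOC100360095. AABR07048474.1 and LOC100360095 are annotated as urinary proteins, a family of near-identical copies. The counting may have split their reads, so their single values are uncertain. Long-term survivor replicates 3 and 7 were again lowest for LOC100360095 (6.03 and 5.51 FPKM), AABR07048463.1 (36.4 and 36.8) and AABR07048474.1 (74.4 and 75.7). Post-transplant replicate 9 had 279, 237 and 534 FPKM of these genes, so the groups overlapped there too.

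**Figure D2:**
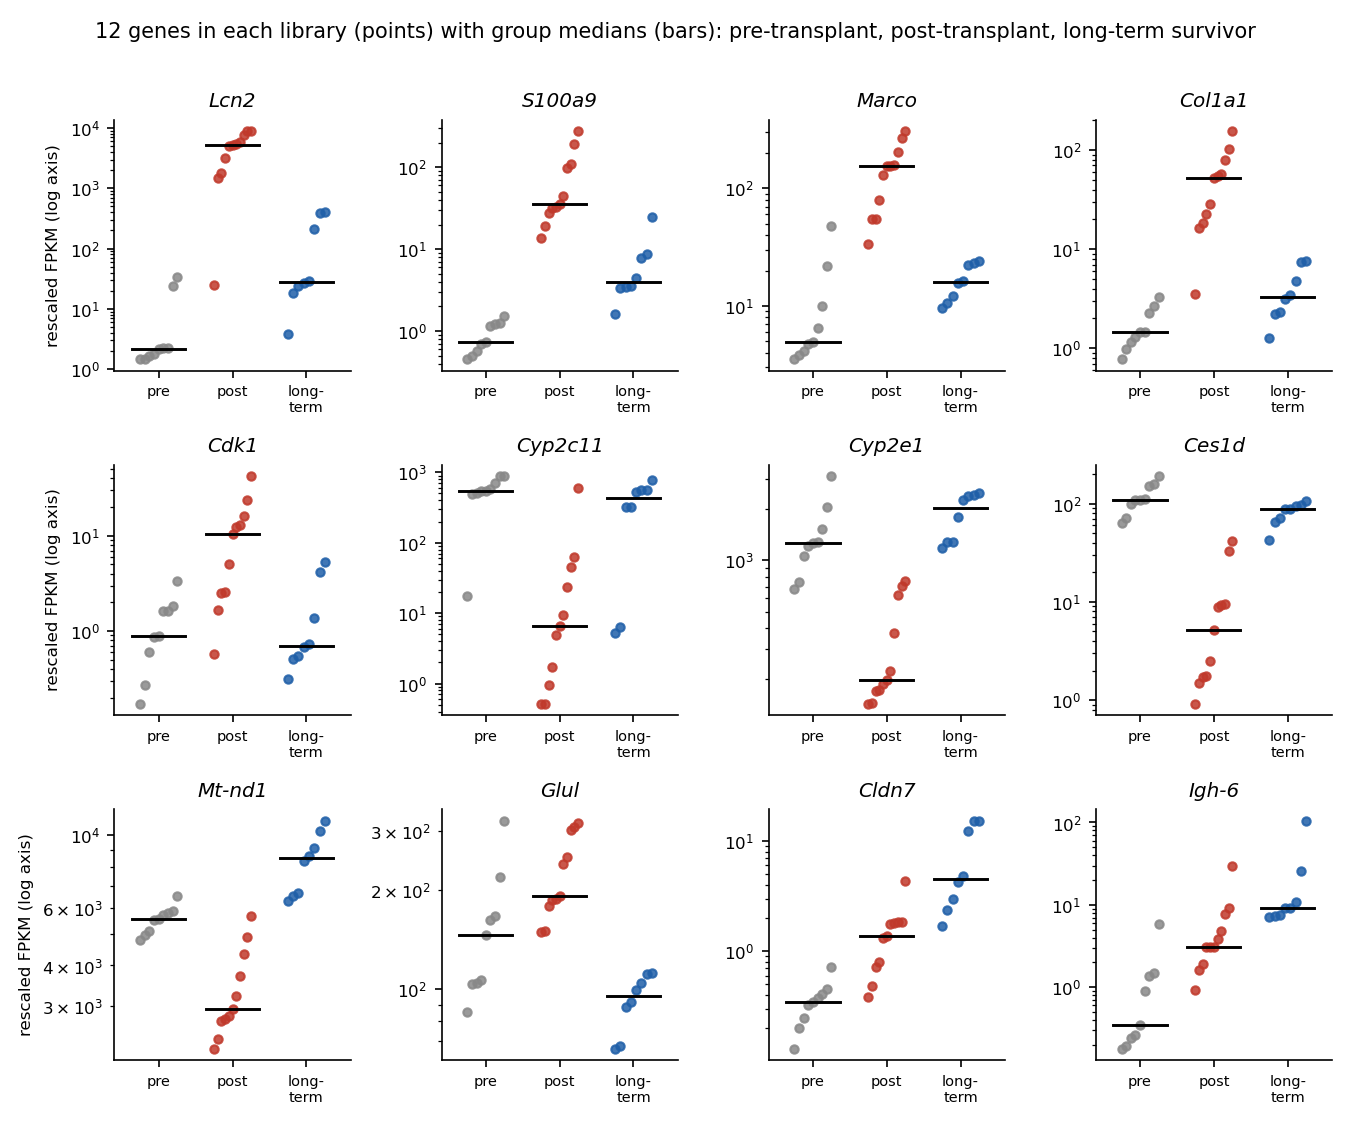
Rescaled FPKM of 12 genes on a log axis, each point 1 library, in 9 pre-transplant (grey), 11 post-transplant (red) and 8 long-term survivor (blue) libraries, with bars at the group medians. Lcn2, S100a9, Marco and Col1a1 were lower in long-term survivors than after transplantation. Ces1d, Cyp2e1 and Mt-nd1 were higher and Glul was lower with no overlap. Cyp2c11 splits the long-term survivors into 6 libraries at 319 FPKM or more and 2 at 6.28 or less.

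Acute phase proteins are mainly plasma proteins that hepatocytes make during inflammation. The list also holds genes whose products are not plasma proteins, among them Mt1, Mt2A, Tifa and Steap4. Of 29 genes listed 25 were tested, and of these 16 were lower in long-term survivors and 1 was higher, where 18.7% and 20.7% of all genes tested were (median -0.80, against 0.01 for all genes). Orm1 (ENSRNOG00000007886, chromosome 5, 79179417 to 79182820), which encodes the glycoprotein orosomucoid, lay at a median of 1142 FPKM in long-term survivors (range 533 to 3199.6) against 7314 in post-transplant livers (range 835 to 16364), a change of -2.55 ± 0.48 (adjusted p = 0.000571). Spink1, a trypsin inhibitor that the liver makes in inflammation, lay between 9.76 and 28.7 FPKM in long-term survivors (median 18.3) and between 19.6 and 88.2 in post-transplant livers (median 58.7), a change of -1.47 ± 0.27 (adjusted p = 0.000548). Hp, which encodes the hemoglobin binder haptoglobin, lay at 8486 to 23547 FPKM with a median of 11205 in long-term survivors, and at 11714 to 32469 with a median of 23063 after transplantation, a change of -0.80 ± 0.23 (adjusted p = 0.00919), and long-term survivor replicate 1 was the highest of its group. The 3 fibrinogen chain genes were also lower, Fga by -0.88 ± 0.27, Fgb by -0.74 ± 0.28 and Fgg by -0.89 ± 0.26, with adjusted p up to 0.0427, as was the lipopolysaccharide binding protein gene Lbp (-1.197 ± 0.39, adjusted p = 0.0209). Serpina3c, a serpin gene, was the member that was higher (2.72 ± 0.58, adjusted p = 0.00149), from a median of 455 to 2797 FPKM. Some members did not pass the test: Crp (0.47 ± 0.29, adjusted p = 0.202), Cp, the copper protein ceruloplasmin (-0.25 ± 0.17, adjusted p = 0.259), and Hamp, the iron hormone hepcidin (1.46 ± 0.72, adjusted p = 0.116). The mean level of the list, as mean log2(rescaled FPKM + 1), was 8.11 to 9.24 in long-term survivors, 8.08 to 10.48 in post-transplant and 7.39 to 7.85 in pre-transplant livers. Every long-term survivor lay above every pre-transplant library, and post-transplant replicate 9 lay below them at 8.08. Among 20 members with a RefSeq promoter window of 300 bases, 2 (10%) hold the STAT site TTCCNGGAA on either strand, Fga and Steap4, against 1.267% of 33469 windows.

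Neutrophil markers were lower in 10 of 11 tested members and higher in 0 (median -1.66), but 11 of 22 listed genes did not pass the filter or were not used, and 4 of the 11 tested had a long-term survivor median under 1 FPKM. With no filter 13 of 21 were lower and 0 higher (median -0.93). The tested member with the smallest fall, at -0.80, is also in the acute phase list, where Hp changed by -0.80. The counts and mean levels of the neutrophil list include it, so they do not rest on neutrophil genes alone. S100a8 and S100a9 encode the subunits of calprotectin in neutrophils and monocytes. S100a9 (ENSRNOG00000011483, chromosome 2, 190097554 to 190100276) lay at a median of 4.01 FPKM in long-term survivors (range 1.62 to 24.9) against 35.4 in post-transplant livers (range 13.5 to 276), a change of -3.05 ± 0.53 (adjusted p = 0.000316), and the highest long-term survivor was replicate 1. S100a8 (ENSRNOG00000011557, chromosome 2, 190073815 to 190074354) lay between 1.02 and 17.6 FPKM in long-term survivors (median 4.07) and between 5.04 and 289.7 in post-transplant livers (median 29.8), a change of -3.10 ± 0.60 (adjusted p = 0.000731). Ncf1 and Ncf4, subunits of the phagocyte oxidase, changed by -2.24 ± 0.47 and -1.85 ± 0.26, and Mmp9, a matrix-degrading protease, by -2.01 ± 0.40. Csf3r, the receptor of granulocyte colony-stimulating factor, fell from a median of 3.66 to 0.445 FPKM (-1.42 ± 0.37, adjusted p = 0.00518). Mpo, made in neutrophil precursors, was at or near 0 in both groups, with a highest value of 0.214 FPKM. Slpi, a protease inhibitor, did not pass (-0.93 ± 0.59, adjusted p = 0.217). Of the 8 long-term survivors 7 had a mean level above the pre-transplant range. With a filter of 1 FPKM in every library of a group, which tests fewer members, 6 were lower.

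Monocyte and recruited macrophage markers were lower in 16 of 18 tested members and higher in 0 (median -1.27), and the mean level of the list did not overlap between the groups (3.13 to 3.74 against 4.05 to 6.06). Lyz2 (ENSRNOG00000005825, chromosome 7, 60335969 to 60341264), which encodes lysozyme, lay at 28.2 to 82.2 FPKM with a median of 44.3 in long-term survivors, and at 79.2 to 1652 with a median of 512 after transplantation, a change of -2.84 ± 0.49 (adjusted p = 0.000312). Lgals3, the lectin galectin 3 of activated macrophages, lay at a median of 12.4 FPKM in long-term survivors (range 8.42 to 30.6) against 77.8 in post-transplant livers (range 20.2 to 167), a change of -2.07 ± 0.34 (adjusted p = 0.000199). Gpnmb, a membrane glycoprotein of lipid-laden and phagocytic macrophages, lay between 3.17 and 9.66 FPKM in long-term survivors (median 6.73) and between 10.5 and 335 in post-transplant livers (median 59.4), a change of -2.95 ± 0.44 (adjusted p = 0.000103). Cybb, the catalytic subunit of the phagocyte oxidase, changed by -1.88 ± 0.28 (adjusted p = 0.000101) and the scavenger receptor gene Msr1 by -1.22 ± 0.16 (adjusted p = 3.85e-05). Cd14 (-0.58 ± 0.25, adjusted p = 0.0776) and Mmp12 (-0.12 ± 0.33, adjusted p = 0.799) did not pass.

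Kupffer cells are the resident macrophages of the liver sinusoid. Of 14 tested markers 12 were lower and 0 higher (median -0.95). Marco (ENSRNOG00000049303, chromosome 16, 85115201 to 85135859), a scavenger receptor for bacteria, lay at 9.55 to 24.3 FPKM with a median of 15.9 in long-term survivors, and at 33.6 to 308 with a median of 154 after transplantation, a change of -2.83 ± 0.36 (adjusted p = 3.68e-05), with no overlap. Cd5l, a protein secreted by tissue macrophages, lay at a median of 75.1 FPKM in long-term survivors (range 65.3 to 89.5) against 175 in post-transplant livers (range 86.0 to 419), a change of -1.36 ± 0.23 (adjusted p = 0.000279). The complement receptor gene Vsig4 changed by -0.62 ± 0.24 (adjusted p = 0.0474). Clec4f, a lectin gene held to be specific to Kupffer cells in rodents, did not pass (0.38 ± 0.45, adjusted p = 0.52604), with medians of 93.8 and 96.0 FPKM. Its post-transplant values spread widely, from 9.33 to 163 FPKM, around the long-term survivor range of 75.8 to 111.

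Cytokines, chemokines and adhesion molecules were lower in 15 of 27 tested members and higher in 2 (median -0.72). With no filter 15 of 39 were lower and 1 higher (median -0.44). Il1b, the cytokine interleukin 1 beta, lay between 4.28 and 9.66 FPKM in long-term survivors (median 5.16) and between 6.70 and 88.5 in post-transplant livers (median 40.7), a change of -2.21 ± 0.40 (adjusted p = 0.000406), and replicate 1 was the highest long-term survivor. Ccl2, which attracts monocytes, lay at 0.538 to 1.46 FPKM with a median of 0.805 in long-term survivors, and at 0.0878 to 37.5 with a median of 6.496 after transplantation, a change of -2.06 ± 0.53 (adjusted p = 0.00526). Cxcl1, which attracts neutrophils, changed by -1.9996 ± 0.46 (adjusted p = 0.00247) and Il10, an inhibitory cytokine, by -1.25 ± 0.22 (adjusted p = 0.000308). The members that were higher were Cxcl12 (1.11 ± 0.35, adjusted p = 0.0170), a chemokine of stromal and endothelial cells, and Ccl21 (0.99 ± 0.38, adjusted p = 0.0431), which attracts lymphocytes. Of 16 inflammasome and necroptosis genes 10 were lower (62.5%, against 18.7% of all genes) and 0 higher (median -0.66). Il1b is in this list as well as among the cytokines and was counted in each. Ripk3, the kinase of necroptosis, lay at a median of 1.53 FPKM in long-term survivors (range 1.12 to 1.803) against 6.09 in post-transplant livers (range 1.83 to 16.4), a change of -1.51 ± 0.23 (adjusted p = 0.000104), Casp1, the inflammasome protease, changed by -1.11 ± 0.22 (adjusted p = 0.000938), and Gsdmd, the pore protein that it cuts, did not pass (-0.22 ± 0.14, adjusted p = 0.24).

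Extracellular matrix genes were lower in 23 of 34 tested members and higher in 0 (median -1.17). Col4a1 (ENSRNOG00000016281, chromosome 16, 83522162 to 83632153), a chain of the basement membrane collagen IV, lay between 5.47 and 10.6 FPKM in long-term survivors (median 6.57) and between 20.8 and 77.6 in post-transplant livers (median 29.7), a change of -2.10 ± 0.22 (adjusted p = 8.46e-06), with no overlap. Col1a1 (ENSRNOG00000003897, chromosome 10, 82745801 to 82762789), the main chain of fibrillar collagen I, lay at 1.27 to 7.68 FPKM with a median of 3.31 in long-term survivors, and at 3.53 to 155 with a median of 52.2 after transplantation, a change of -3.06 ± 0.51 (adjusted p = 0.000225). Post-transplant replicate 5 was the lowest of its group with 3.53 FPKM, inside the long-term survivor range. Timp1, an inhibitor of matrix proteases, lay at a median of 2.20 FPKM in long-term survivors (range 1.64 to 4.54) against 22.3 in post-transplant livers (range 5.35 to 53.02), a change of -2.62 ± 0.36 (adjusted p = 5.85e-05). Lox, which cross-links collagen, lay between 0.296 and 2.498 FPKM in long-term survivors (median 0.542) and between 0.152 and 14.0 in post-transplant livers (median 6.29), a change of -1.94 ± 0.37 (adjusted p = 0.000654), while the pre-transplant median of Lox was 14.4 FPKM. Col12a1 (-1.30 ± 0.14, adjusted p = 8.46e-06) and Col5a2 (-1.66 ± 0.19, adjusted p = 1.54e-05) were among the members with the smallest p-values. Fn1, which encodes fibronectin of plasma and matrix (-0.14 ± 0.18, adjusted p = 0.57), Col18a1 (0.12 ± 0.13, adjusted p = 0.499) and Bgn (0.12 ± 0.16, adjusted p = 0.58) did not pass. All 11 post-transplant mean levels of the list lay above all 8 of the long-term survivors, of which 5 lay above the pre-transplant range.

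Stellate cells store vitamin A and turn into contractile matrix-producing cells after injury. Of 13 markers of stellate cells and fibroblasts 5 were lower and 2 higher (median -0.46). With no filter 6 of 18 were lower and 2 higher (median -0.30). Acta2, the smooth muscle actin of activated stellate cells, lay at 2.94 to 6.91 FPKM with a median of 4.59 in long-term survivors, and at 4.64 to 26.5 with a median of 14.2 after transplantation, a change of -1.44 ± 0.29 (adjusted p = 0.000976), and Tagln, an actin binding protein, changed by -1.64 ± 0.29 (adjusted p = 0.000354). Hand2, a transcription factor of quiescent stellate cells, was higher (0.73 ± 0.14, adjusted p = 0.000673), as was Mylk, a myosin kinase (0.63 ± 0.15, adjusted p = 0.00354). Lrat (-0.21 ± 0.21, adjusted p = 0.442) and Reln (-0.38 ± 0.18, adjusted p = 0.0899), markers of stellate cells in general, did not pass. Endothelial markers were lower in 11 of 15 tested members of the vascular list (0 higher, median -0.54) and in 11 of 18 of the sinusoidal list (1 higher, median -0.50). Cdh5, the cadherin of endothelial junctions, lay at a median of 7.72 FPKM in long-term survivors (range 6.86 to 10.05) against 15.0 in post-transplant livers (range 12.9 to 23.3), a change of -0.95 ± 0.12 (adjusted p = 2.77e-05), with no overlap. Lyve1, a hyaluronan receptor of sinusoidal endothelium, lay between 6.24 and 19.2 FPKM in long-term survivors (median 11.8) and between 21.5 and 36.2 in post-transplant livers (median 26.2), a change of -1.24 ± 0.19 (adjusted p = 0.000107), also with no overlap. The member that was higher was Rspo3 (0.24 ± 0.09, adjusted p = 0.0421), a Wnt enhancer of the central vein. Pf4, a platelet chemokine, changed by -1.86 ± 0.21 (adjusted p = 1.41e-05).

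Genes of the cell cycle and DNA replication act in a wave when hepatocytes or other cells divide. Of 36 tested members 32 were lower in long-term survivors and 0 higher (median -1.21), and 21 of the 36 had a long-term survivor median under 1 FPKM. With no filter 35 of 43 were lower and 0 higher (median -1.12). Mcm2, a part of the replication helicase, lay at 1.31 to 2.95 FPKM with a median of 1.61 in long-term survivors, and at 1.9999 to 18.9 with a median of 5.50 after transplantation, a change of -1.32 ± 0.29 (adjusted p = 0.00200). Cdk1, the kinase that starts mitosis, lay at a median of 0.704 FPKM in long-term survivors (range 0.317 to 5.24) against 10.5 in post-transplant livers (range 0.571 to 42.5), a change of -1.87 ± 0.55 (adjusted p = 0.0113), and Rrm2, a subunit of ribonucleotide reductase, changed by -2.06 ± 0.78 (adjusted p = 0.0411). Ccnd1, the cyclin of the G1 phase, did not pass (0.31 ± 0.46, adjusted p = 0.615), with medians of 18.3 and 11.7 FPKM. The libraries within each group were far from alike. Long-term survivor replicates 3 and 7 had 5.24 and 4.12 FPKM of Cdk1, and the other 6 had at most 1.38. Post-transplant libraries ran from 0.571 FPKM in replicate 5 to 42.5 in replicate 6. As mean log2 levels of the list, replicates 3 and 7 lay at 2.16 and 2.19, the others at 1.02 to 1.34, and post-transplant libraries at 1.17 to 4.39. Without replicates 3 and 7, an alternative chosen after seeing the data, 34 members were lower. A filter of 1 FPKM in every library of a group left fewer members to test, and 12 were lower.

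The promoters of mitotic genes commonly hold the CHR element (TTTGAA), bound by the DREAM and MuvB complexes, and NF-Y boxes (CCAAT), so the windows of the 36 members were searched on both strands, with overlapping matches counted. RefSeq windows (GRCr8, 250 bases before to 50 after the start) matched 28 members by symbol. Of these 12 (42.86%) hold TTTGAA and 22 (78.57%) hold CCAAT, against 18.35% and 37.49% of all 33469 windows. Among the 25 matched members that were lower the shares were 44% and 80%. Cdk1, Birc5 and Top2a, mitotic genes chosen after the matches were seen because each window holds both motifs, show the arrangement, with CHR and NF-Y matches on either strand in capitals, and a match is a description of letters only.
Cdk1, chr20:19265043-19265342, plus strand: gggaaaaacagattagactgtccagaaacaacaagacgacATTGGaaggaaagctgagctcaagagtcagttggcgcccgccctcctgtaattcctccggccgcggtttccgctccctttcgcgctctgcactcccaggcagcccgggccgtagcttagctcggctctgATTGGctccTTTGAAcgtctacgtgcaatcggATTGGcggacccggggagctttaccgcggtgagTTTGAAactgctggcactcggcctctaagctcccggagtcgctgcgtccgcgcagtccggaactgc
Birc5, an inhibitor of apoptosis that acts in chromosome segregation, chr10:103571896-103572195, plus strand: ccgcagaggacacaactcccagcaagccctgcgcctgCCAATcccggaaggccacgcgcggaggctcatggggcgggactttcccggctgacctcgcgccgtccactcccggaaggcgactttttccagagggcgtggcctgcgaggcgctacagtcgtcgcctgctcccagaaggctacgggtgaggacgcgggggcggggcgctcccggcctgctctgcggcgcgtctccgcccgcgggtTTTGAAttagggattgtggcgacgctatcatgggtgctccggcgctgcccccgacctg
Top2a, the topoisomerase that untangles chromosomes, chr10:84473044-84473343, minus strand: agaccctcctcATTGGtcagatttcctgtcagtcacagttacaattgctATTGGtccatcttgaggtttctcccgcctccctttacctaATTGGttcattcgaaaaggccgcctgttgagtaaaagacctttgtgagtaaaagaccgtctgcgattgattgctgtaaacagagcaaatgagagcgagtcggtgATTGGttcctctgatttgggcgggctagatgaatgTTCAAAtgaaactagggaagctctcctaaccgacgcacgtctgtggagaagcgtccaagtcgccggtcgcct
Birc5 lay between 0.877 and 4.25 FPKM in long-term survivors (median 1.68) and between 2.69 and 40.0 in post-transplant livers (median 7.89), a change of -1.69 ± 0.40 (adjusted p = 0.00315). Top2a lay at 0.259 to 3.12 FPKM with a median of 0.544 in long-term survivors, and at 0.406 to 23.1 with a median of 7.22 after transplantation, a change of -1.64 ± 0.49 (adjusted p = 0.0125). In both genes long-term survivor replicates 3 and 7 were again the highest of their group.

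**Figure D3:**
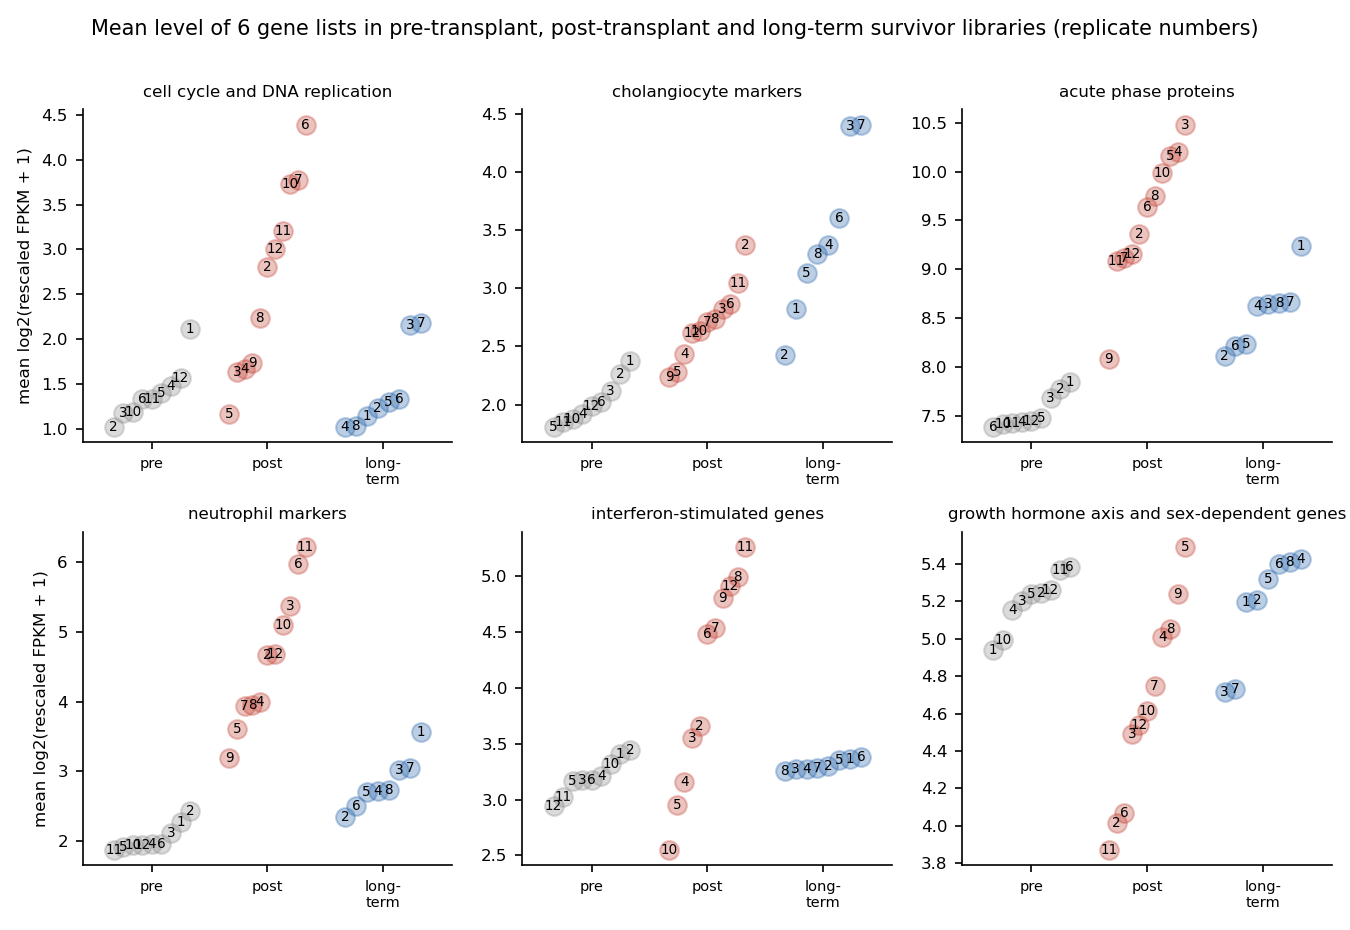
Mean log2(rescaled FPKM + 1) of 6 gene lists, each point 1 library with its replicate number, in pre-transplant (grey), post-transplant (red) and long-term survivor (blue) livers. Long-term survivor replicates 3 and 7 lie together at the upper end for cell cycle and cholangiocyte genes and at the lower end for the growth hormone axis. Interferon-stimulated genes run from 2.55 to 5.26 in post-transplant livers and within 3.26 to 3.38 in long-term survivors.

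Interferon-stimulated genes form the antiviral programme that type I and type II interferons switch on. Of 37 tested members 11 were lower (29.7%, against 18.7% of all genes) and 0 higher (median -0.68). Isg15, a ubiquitin-like modifier, lay at a median of 5.34 FPKM in long-term survivors (range 4.04 to 8.71) against 45.6 in post-transplant livers (range 1.52 to 100.7), a change of -1.71 ± 0.62 (adjusted p = 0.0347). In 6 post-transplant libraries, replicates 6, 7, 8, 9, 11 and 12, Isg15 stood at 45.6 FPKM or more, and in the other 5 at 8.54 or less. Mx1, a GTPase that blocks viruses, split the same libraries, at 15.7 FPKM or more and at 4.75 or less (-1.67 ± 0.61, adjusted p = 0.0353). Ifi47, an interferon gamma-induced GTPase, changed by -1.85 ± 0.39 (adjusted p = 0.00141). The long-term survivors were alike, with mean levels of the list at 3.26 to 3.38, all within the pre-transplant range of 2.95 to 3.44. Without post-transplant replicate 10, which had the lowest level, 17 members were lower, and with array weights 23.

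Antigen presentation genes were lower in 7 of 22 tested members (31.8%, against 18.7% of all genes) and higher in 0 (median -0.48). Without rescaling or with array weights 12 were lower. Ctss, the protease that trims the class II invariant chain, changed by -0.97 ± 0.19 (adjusted p = 0.000729) and Psmb10, an immunoproteasome subunit, by -0.82 ± 0.19 (adjusted p = 0.00221). The class II genes Cd74 (-0.13 ± 0.45, adjusted p = 0.845) and RT1-Da (-0.48 ± 0.44, adjusted p = 0.397) did not pass, and RT1 genes are near-identical copies whose reads may be split. Among T and NK cell markers 12 of 35 passed the filter, and 1 of them, Cd4, was lower (-0.65 ± 0.22, adjusted p = 0.0256). Cd4 is also made by rat macrophages. Cd8a (-0.72 ± 0.39, adjusted p = 0.155) and Cd3g (0.34 ± 0.27, adjusted p = 0.335) did not pass, and Cd3e was at most 0.965 FPKM in long-term survivors. Of 4 tested B and plasma cell markers 1 was higher and 1 lower (median -0.03), and the lower one was Cd37, a tetraspanin of leukocytes (-0.80 ± 0.22, adjusted p = 0.00843). Igh-6, an immunoglobulin heavy chain gene of B cells, was higher (1.49 ± 0.51, adjusted p = 0.0265) and lay between 7.06 and 105.2 FPKM in long-term survivors (median 9.23) and between 0.931 and 29.5 in post-transplant livers (median 3.09). That call rests on single libraries, since adjusted p was 0.05153 without long-term survivor replicate 1 and 0.05514 without replicate 5, and Jchain, the joining chain of secreted antibody, did not pass (0.16 ± 0.43, adjusted p = 0.793).

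**Figure D4:**
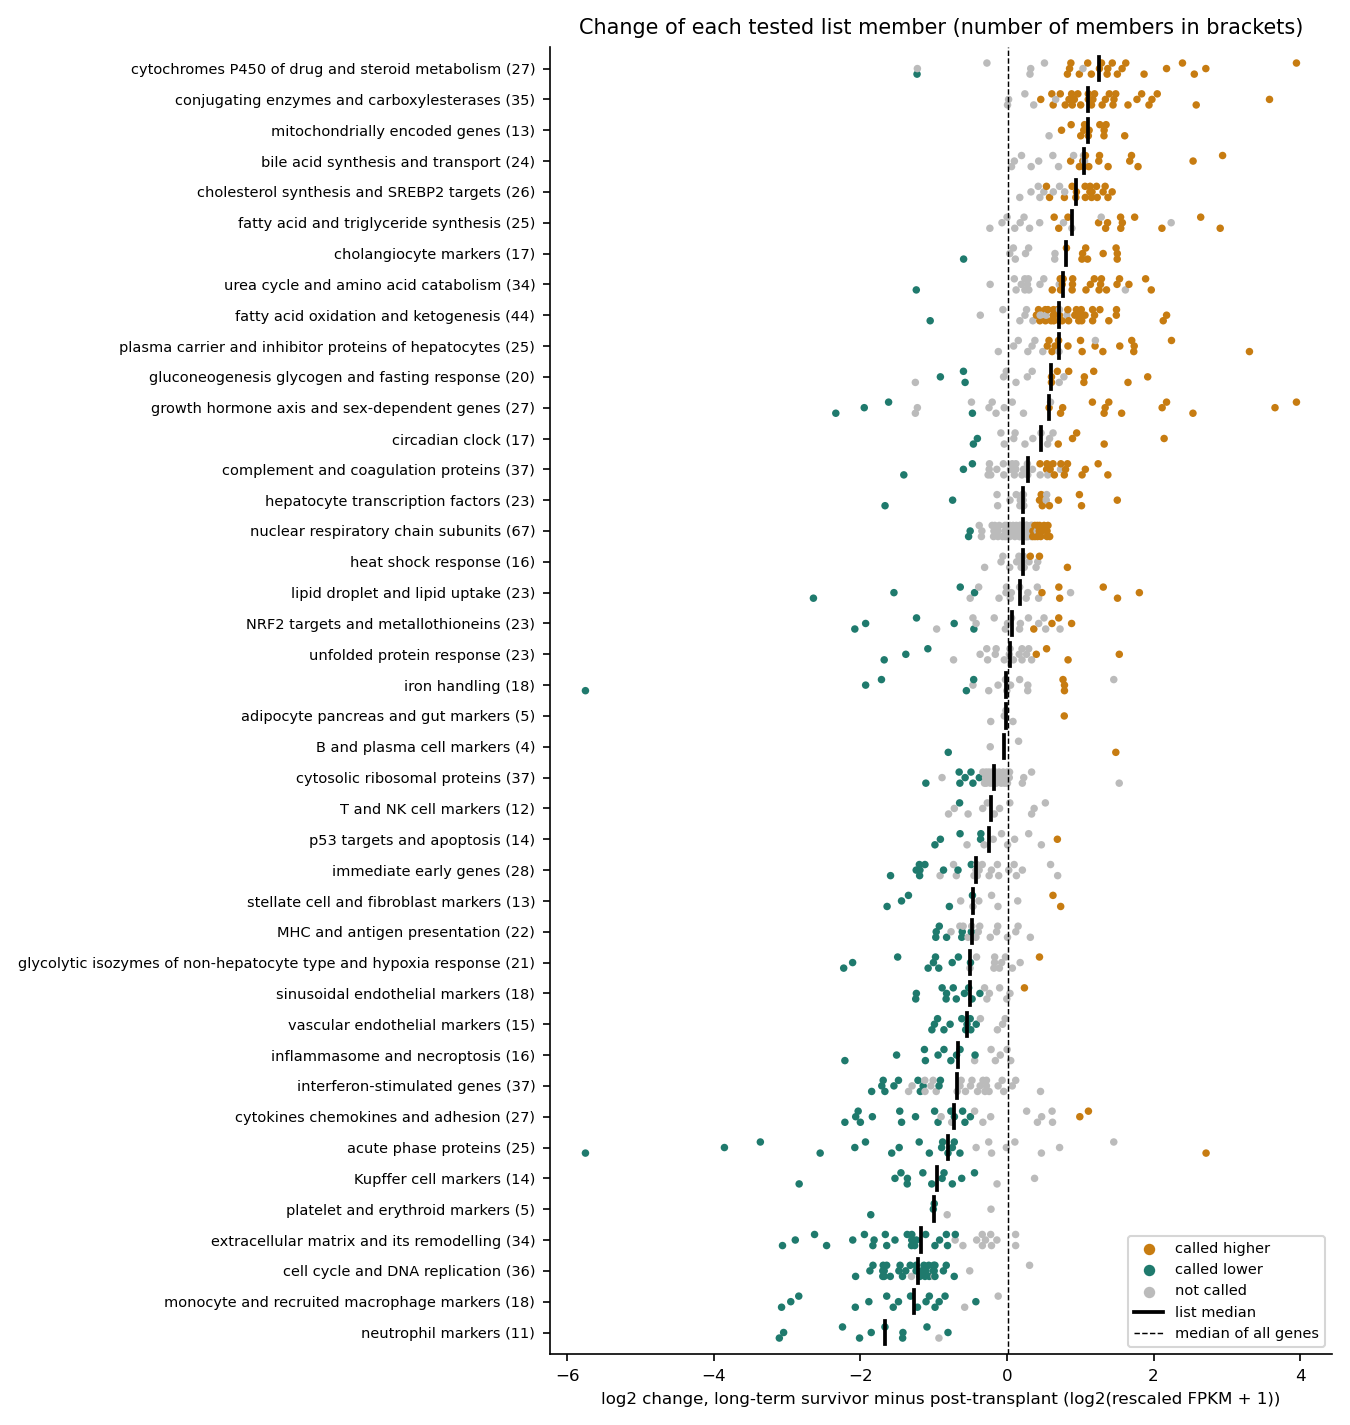
Log2 change (long-term survivor minus post-transplant, log2(rescaled FPKM + 1)) of every tested member of 42 gene lists, coloured orange where called higher, green where called lower and grey where not called. Black bars are list medians and the dashed line is the median of all genes, 0.01. Medians over tested members run from -1.66 for neutrophil markers to 1.26 for cytochromes P450, and that of nuclear respiratory chain subunits (0.22) is -0.08 with quantile normalization.

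Genes of hepatocyte function were mostly higher in long-term survivors. Among plasma carrier and inhibitor proteins 16 of 25 tested members were higher and 0 lower (median 0.71). Alb (ENSRNOG00000002911, chromosome 14, 19176277 to 19191863) lay at 33772 to 70069 FPKM with a median of 50806 in long-term survivors, and at 9936 to 44731 with a median of 19332 after transplantation, a change of 1.31 ± 0.28 (adjusted p = 0.00145). Ttr, which encodes transthyretin, the carrier of thyroxine and retinol-binding protein, lay at a median of 9711 FPKM in long-term survivors (range 6874 to 14065) against 2439 in post-transplant livers (range 1122 to 7443), a change of 1.70 ± 0.32 (adjusted p = 0.000622). Hrg, a histidine-rich plasma glycoprotein, changed by 1.74 ± 0.29 (adjusted p = 0.000260) and Pon1, the lipoprotein esterase paraoxonase, by 1.73 ± 0.35 (adjusted p = 0.000931). Apoa1 (0.15 ± 0.23, adjusted p = 0.611), Apob (0.09 ± 0.14, adjusted p = 0.635) and Serpina1 (0.34 ± 0.23, adjusted p = 0.236) did not pass. In the complement and coagulation list 14 of 37 were higher (37.8%) and 3 lower (8.11%), where 20.7% and 18.7% of all genes were (median 0.28). With quantile normalization 9 were higher and 9 lower (median 0.09). Without rescaling the median was 0.06, where that of all genes was -0.17. F12, coagulation factor XII, changed by 1.07 ± 0.23 (adjusted p = 0.00151) and Plg, which encodes plasminogen, by 1.02 ± 0.25 (adjusted p = 0.00373). The 3 lower members were C4b (-1.41 ± 0.37, adjusted p = 0.00637), C9 (-0.59 ± 0.16, adjusted p = 0.00648) and F7 (-0.47 ± 0.18, adjusted p = 0.0397), which encode complement components and factor VII.

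Cytochromes P450 oxidise drugs, steroids and fatty acids. Of 27 tested members 20 were higher and 1 lower (median 1.26). Cyp2e1 (ENSRNOG00000012458, chromosome 1, 213511874 to 213535542), the enzyme of ethanol and acetaminophen oxidation, lay between 1177 and 2477 FPKM in long-term survivors (median 2024) and between 144 and 758 in post-transplant livers (median 198), a change of 2.71 ± 0.34 (adjusted p = 3.34e-05), with no overlap. Cyp2b1, an enzyme induced by phenobarbital, lay at 0.356 to 12.9 FPKM with a median of 4.19 in long-term survivors, and at 0 to 1.01 with a median of 0.213 after transplantation, a change of 1.87 ± 0.29 (adjusted p = 0.000131). Cyp2d4 (1.29 ± 0.16, adjusted p = 3.47e-05) and Cyp2j4 (1.44 ± 0.21, adjusted p = 8.79e-05) also passed, and the member that was lower was Cyp3a62 (-1.23 ± 0.28, adjusted p = 0.00208). Cyp1a2 (1.04 ± 0.44, adjusted p = 0.0699) and Por, the reductase that passes electrons to these enzymes (0.32 ± 0.25, adjusted p = 0.321), did not pass. Members of the Cyp2c, Cyp2d and Cyp4a families are close copies, and how their reads were assigned is not given in the sources used here. Conjugating enzymes and carboxylesterases were higher in 30 of 35 tested members and lower in 0 (median 1.11), and their mean levels did not overlap between the groups (6.31 to 6.60 against 4.47 to 6.14). Gstm2, a glutathione transferase, lay at a median of 393 FPKM in long-term survivors (range 307 to 492) against 82.7 in post-transplant livers (range 56.6 to 223), a change of 1.94 ± 0.24 (adjusted p = 2.77e-05). Ugt1a5, a glucuronosyltransferase, changed by 1.11 ± 0.14 (adjusted p = 3.24e-05) and the carboxylesterase gene Ces2h by 1.65 ± 0.23 (adjusted p = 5.85e-05). Gstp1, the glutathione transferase of bile duct cells, did not pass (0.01 ± 0.15, adjusted p = 0.973).

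Growth hormone, released in pulses in male rats, drives the male pattern of liver gene expression through STAT5. Of 27 tested genes of that axis 13 were higher and 4 lower (median 0.57). Cyp2c13 lay between 809 and 2069 FPKM in long-term survivors (median 1661) and between 83.6 and 1915 in post-transplant livers (median 307), a change of 2.18 ± 0.46 (adjusted p = 0.00141). Ghr, the growth hormone receptor, changed by 1.33 ± 0.29 (adjusted p = 0.00173), Igfals, which stabilises IGF1 in plasma, by 1.39 ± 0.31 (adjusted p = 0.00208), and Igf1 itself by 0.76 ± 0.23 (adjusted p = 0.0122). The lower members were Socs3 (-2.33 ± 0.32, adjusted p = 6.52e-05), a cytokine-induced inhibitor of JAK kinases, Cux2 (-1.61 ± 0.34, adjusted p = 0.00143), a female-predominant repressor in rodent liver, Akr1b7 (-1.95 ± 0.60, adjusted p = 0.0155) and Stat3 (-0.47 ± 0.16, adjusted p = 0.0241). Cyp2c12, the female-specific enzyme of rat liver, did not pass (-1.22 ± 0.57, adjusted p = 0.0961). Cyp2c13 was also lowest in long-term survivor replicates 3 and 7, with 809 and 813 FPKM, against 1445 or more in the other 6. Hsd3b5, a male-predominant steroid enzyme, lay at 43.4 to 82.2 FPKM with a median of 62.5 in long-term survivors, and at 11.6 to 70.5 with a median of 21.1 after transplantation, a change of 1.34 ± 0.28 (adjusted p = 0.00116). Ca3, a carbonic anhydrase of male rat liver, lay at a median of 679 FPKM in long-term survivors (range 109 to 865) against 98.0 in post-transplant livers (range 1.802 to 562), and its call (2.54 ± 0.93, adjusted p = 0.0367) ended with voom (adjusted p = 0.07865), with quantile normalization (0.05074), with no filter (0.05913), with the pairs averaged (0.05718) and in 9 of the 19 fits that left out 1 library.

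Bile acid genes were higher in 14 of 24 tested members and lower in 0 (median 1.05). Slc10a1 and Slco1b2, carriers that take bile acids and other anions from blood, changed by 1.70 ± 0.35 (adjusted p = 0.00127) and 1.79 ± 0.35 (adjusted p = 0.000725). Slc10a1 lay between 256 and 458 FPKM in long-term survivors (median 383) and between 28.4 and 246 in post-transplant livers (median 122). Cyp8b1 (ENSRNOG00000019481, chromosome 8, 130548418 to 130550388), the sterol hydroxylase that makes cholic acid, lay at 166 to 356 FPKM with a median of 231 in long-term survivors, and at 0.369 to 286 with a median of 54.6 after transplantation, a change of 2.94 ± 0.88 (adjusted p = 0.0124). Among the 11 post-transplant libraries it was one of the most variable genes, and its call ended with voom (adjusted p = 0.054). Nr1h4, the bile acid receptor FXR, changed by 0.99 ± 0.20 (adjusted p = 0.000979), and Cyp7a1, the rate-limiting enzyme of bile acid synthesis, did not pass (1.04 ± 0.53, adjusted p = 0.127), nor did Abcb11, the bile salt export pump (0.20 ± 0.27, adjusted p = 0.575).

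Lipid genes were higher on the side of burning and on the side of making fat. In fatty acid oxidation and ketogenesis 33 of 44 tested members were higher and 1 lower (median 0.71). Acadm, the medium-chain dehydrogenase of mitochondria, lay at a median of 256 FPKM in long-term survivors (range 249 to 358) against 106.7 in post-transplant livers (range 47.1 to 249.8), a change of 1.27 ± 0.23 (adjusted p = 0.000466). Acsl1, which activates fatty acids with coenzyme A, lay between 410.3 and 751 FPKM in long-term survivors (median 621) and between 46.6 and 481 in post-transplant livers (median 94.2), a change of 2.18 ± 0.44 (adjusted p = 0.00103). Crot and Abcd3, of peroxisomes, changed by 1.39 ± 0.23 (adjusted p = 0.000192) and 0.83 ± 0.12 (adjusted p = 7.42e-05). The lower member was Fgf21, a stress and fasting hormone of the liver (-1.05 ± 0.36, adjusted p = 0.0267), and Ppara, the receptor that drives many of these genes, did not pass (0.18 ± 0.33, adjusted p = 0.696). In fatty acid and triglyceride synthesis 13 of 25 were higher and 0 lower (median 0.89). Pnpla3, a lipase of lipid droplets and a target of SREBP1, lay at 10.7 to 76.0 FPKM with a median of 21.5 in long-term survivors, and at 0.0433 to 47.1 with a median of 1.45 after transplantation, a change of 2.91 ± 0.67 (adjusted p = 0.00245). Srebf1, the transcription factor of the pathway, lay at a median of 104.4 FPKM in long-term survivors (range 66.0 to 132) against 17.1 in post-transplant livers (range 8.25 to 166), a change of 1.74 ± 0.48 (adjusted p = 0.00824). Scd, a desaturase, varied in post-transplant livers from 2.15 to 528 FPKM and did not pass (2.24 ± 0.92, adjusted p = 0.0594). In cholesterol synthesis 18 of 26 were higher and 0 lower (median 0.94), among them Nsdhl (1.44 ± 0.26, adjusted p = 0.000386), an enzyme of sterol demethylation. Of 23 lipid droplet and uptake genes 6 were higher (26.1%) and 4 lower (17.4%), where 20.7% and 18.7% of all genes were. The median was 0.17, or -0.04 without rescaling. Plin2, the coat protein whose amount follows stored fat, did not pass (-0.01 ± 0.26, adjusted p = 0.989), with medians of 59.7 and 51.1 FPKM. Fabp4, a fatty acid binding protein of macrophages and fat cells, was lower (-2.64 ± 0.33, adjusted p = 3.47e-05) while Hsd17b11 (1.51 ± 0.21, adjusted p = 7.05e-05) and Lipc, hepatic lipase (1.81 ± 0.29, adjusted p = 0.000178), were higher.

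The mitochondrial genome encodes 13 proteins of the respiratory chain, and 12 of these genes were higher in long-term survivors and 0 lower (median 1.11). Mt-nd1 lay between 6274 and 11085 FPKM in long-term survivors (median 8499) and between 2228 and 5678 in post-transplant livers (median 2935), a change of 1.33 ± 0.19 (adjusted p = 7.76e-05), with no overlap. Mt-co1 lay at 17095 to 24451 FPKM with a median of 22111 in long-term survivors, and at 7158 to 16434 with a median of 8888 after transplantation, a change of 1.06 ± 0.17 (adjusted p = 0.000168). Mt-nd6 (1.61 ± 0.22, adjusted p = 6.06e-05) lies on the other strand of the genome from its neighbours, and the sources used here do not say whether strand was counted. Mt-co2 did not pass (0.57 ± 0.25, adjusted p = 0.0721). Of the 8 long-term survivors 6 had a mean level above the pre-transplant range. Of 67 tested nuclear genes of the respiratory chain 15 were higher (22.4%) and 2 lower (2.99%), where 20.7% and 18.7% of all genes were (median 0.22). These counts depended on the scaling, and with quantile normalization 5 were higher and 17 lower (median -0.08) and without rescaling 2 were higher and 6 lower. Ndufa12 (0.55 ± 0.11, adjusted p = 0.000725) and Ndufa10 (0.55 ± 0.12, adjusted p = 0.00202), of complex I, were among the higher ones, and Cycs, which encodes cytochrome c (-0.50 ± 0.17, adjusted p = 0.0249), and Uqcr10 (-0.52 ± 0.20, adjusted p = 0.0463) were the lower ones. In 6 of 8 long-term survivors the mean level lay below the pre-transplant range.

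Urea cycle and amino acid genes were higher in 20 of 34 tested members and lower in 1 (median 0.76). Oat, ornithine aminotransferase, lay at a median of 210.0 FPKM in long-term survivors (range 147 to 293) against 64.4 in post-transplant livers (range 21.4 to 168), a change of 1.89 ± 0.34 (adjusted p = 0.000358), and Otc, ornithine transcarbamylase of the urea cycle, changed by 1.502 ± 0.30 (adjusted p = 0.00102). The lower member was Glul, the glutamine synthetase of hepatocytes around the central vein, which lay between 66.3 and 112 FPKM in long-term survivors (median 95.5) and between 149 and 318 in post-transplant livers (median 192), a change of -1.24 ± 0.17 (adjusted p = 5.34e-05), with no overlap. Arg1 (0.12 ± 0.18, adjusted p = 0.605) did not pass. In gluconeogenesis and glycogen metabolism 9 of 20 were higher and 3 lower (median 0.61), with Ppp1r3b, a glycogen targeting subunit of protein phosphatase, at 1.92 ± 0.43 (adjusted p = 0.00191) and G6pc, glucose-6-phosphatase, at 1.65 ± 0.40 (adjusted p = 0.00362). Glycolytic isozymes of other cell types and hypoxia genes were lower in 10 of 21 and higher in 1 (median -0.50). Pkm, the pyruvate kinase of leukocytes and dividing cells, lay at 4.16 to 10.6 FPKM with a median of 6.33 in long-term survivors, and at 9.66 to 182 with a median of 37.7 after transplantation, a change of -2.23 ± 0.42 (adjusted p = 0.000574) and Hk3, a hexokinase of myeloid cells, changed by -1.49 ± 0.28 (adjusted p = 0.000639). Vegfa (0.18 ± 0.18, adjusted p = 0.431) and Ldha (-0.02 ± 0.20, adjusted p = 0.947) did not pass.

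Stress lists were mixed. Hmox1, which breaks down heme, lay at a median of 27.7 FPKM in long-term survivors (range 23.05 to 93.6) against 118 in post-transplant livers (range 64.2 to 280.2), a change of -1.93 ± 0.30 (adjusted p = 0.000150), and replicate 1 was the highest long-term survivor. Of 23 NRF2 targets and metallothioneins 4 were higher (17.4%) and 5 lower (21.7%), near the 20.7% and 18.7% of all genes. Nqo1, a quinone reductase, was among the lower ones (-1.23 ± 0.28, adjusted p = 0.00210). Of 18 iron genes 3 were higher (16.7%) and 5 lower (27.8%). The member with the greatest fall, Lcn2 at -5.75, is also in the acute phase list, so the counts and mean levels do not rest on iron genes alone. Slc11a1, an iron carrier of phagosomes, was at -1.71 ± 0.25 (adjusted p = 8.02e-05) and Steap3, a ferrireductase, at 0.78 ± 0.16 (adjusted p = 0.00102). In the unfolded protein response 4 of 23 were higher (17.4%) and 3 lower (13%), both below the shares of all genes. Herpud1 was higher (1.53 ± 0.29, adjusted p = 0.000649) and Asns, asparagine synthetase, lower (-1.67 ± 0.34, adjusted p = 0.00107). Hspa5, the main chaperone of the endoplasmic reticulum, did not pass the test (0.27 ± 0.21, adjusted p = 0.319). The heat shock list had 3 of 16 higher, or 18.8% against 20.7% of all genes, among them Bag3 (0.82 ± 0.12, adjusted p = 0.000102), and 0 lower, where 1 was lower at an unadjusted p under 0.05 and 0 by voom. Immediate early genes were lower in 9 of 28, or 32.1% against 18.7% of all genes (median -0.42), and 16 were lower without rescaling. They were higher in 0, where 1 was higher at an unadjusted p under 0.05 and 0 by voom. Fosl2 (-1.24 ± 0.23, adjusted p = 0.000605) and Fos (-1.19 ± 0.24, adjusted p = 0.00113), parts of the AP-1 factor, were lower and Jun (0.21 ± 0.25, adjusted p = 0.518) did not pass. Of 14 p53 and apoptosis genes 1 was higher (7.14%) and 5 lower (35.7%), with Bax, which permeabilises mitochondria, at -0.98 ± 0.19 (adjusted p = 0.000597).

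Among 17 clock genes 5 were higher (29.4%) and 2 lower (11.8%), where 20.7% and 18.7% of all genes were (median 0.46). Across the alternatives that set no fold threshold 3 to 9 were higher and 0 to 2 lower. Nr1d1, the repressor REV-ERB alpha, lay between 24.4 and 40.3 FPKM in long-term survivors (median 33.9) and between 1.62 and 24.6 in post-transplant livers (median 6.59), a change of 2.14 ± 0.38 (adjusted p = 0.000339), and Dbp, a rhythmic output factor, changed by 1.33 ± 0.48 (adjusted p = 0.0326). Arntl, the activator BMAL1, did not pass (-0.04 ± 0.23, adjusted p = 0.913). The labels give no hour of sampling. Of 23 hepatocyte transcription factors 8 were higher (34.8%) and 2 lower (8.7%), with a median of 0.22. With averaged pairs 5 were higher. Cebpa (1.02 ± 0.26, adjusted p = 0.00541) and Hnf4a (0.58 ± 0.22, adjusted p = 0.0411) were higher. Cebpd, the factor induced in the acute phase, was lower (-1.66 ± 0.34, adjusted p = 0.00102). Cytosolic ribosomal proteins were lower in 7 of 37, or 18.9% against 18.7% of all genes, and higher in 0 (2 at an unadjusted p under 0.05, 1 by voom), with a median of -0.18. That count was unstable, at 1 with the pairs averaged, 3 to 4 without long-term survivor replicate 4, 5, 6 or 8, 13 without replicate 1, 24 without rescaling and 26 with quantile normalization. Rplp2 varied from 4.46 to 416 FPKM within long-term survivors. These genes have many processed copies that can share reads.

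Bile duct epithelium is a small part of the liver's cells and grows out in many forms of liver injury. Of 17 tested members 9 were higher and 1 lower (median 0.81). Cldn7, a tight junction protein of epithelia, lay at 1.69 to 15.3 FPKM with a median of 4.49 in long-term survivors, and at 0.382 to 4.37 with a median of 1.39 after transplantation, a change of 1.504 ± 0.35 (adjusted p = 0.00238). Cftr, the chloride channel of ducts, lay at a median of 2.22 FPKM in long-term survivors (range 0.356 to 5.36) against 0.244 in post-transplant livers (range 0.0955 to 1.17), a change of 1.31 ± 0.23 (adjusted p = 0.000308). Sox9, a transcription factor of duct and progenitor cells, lay between 0.375 and 4.87 FPKM in long-term survivors (median 1.92) and between 0.150 and 1.72 in post-transplant livers (median 0.352), a change of 0.81 ± 0.27 (adjusted p = 0.0224), and Krt19, a keratin of ducts, lay at 1.39 to 23.5 FPKM with a median of 6.44 in long-term survivors, and at 0.855 to 6.71 with a median of 2.53 after transplantation, a change of 1.10 ± 0.38 (adjusted p = 0.0280). Krt7, another duct keratin, was below the filter, with 0.209 and 0.506 FPKM at the medians, and Spp1, osteopontin, did not pass (0.66 ± 0.53, adjusted p = 0.339). Replicates 3 and 7 were the highest long-term survivors for Krt19 (23.5 and 22.9 FPKM), while replicate 2 was the lowest (1.39). The lower member was Krt18, a keratin of all liver epithelia (-0.59 ± 0.23, adjusted p = 0.0470). Every long-term survivor mean level (2.43 to 4.41) lay above the pre-transplant range (1.804 to 2.37), while against post-transplant livers (2.24 to 3.37) the groups overlapped. Without replicates 3 and 7, 6 members were higher and 0 lower, and with a filter of 1 FPKM in every library of a group, which tests fewer members, 5 were higher.

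**Figure D5:**
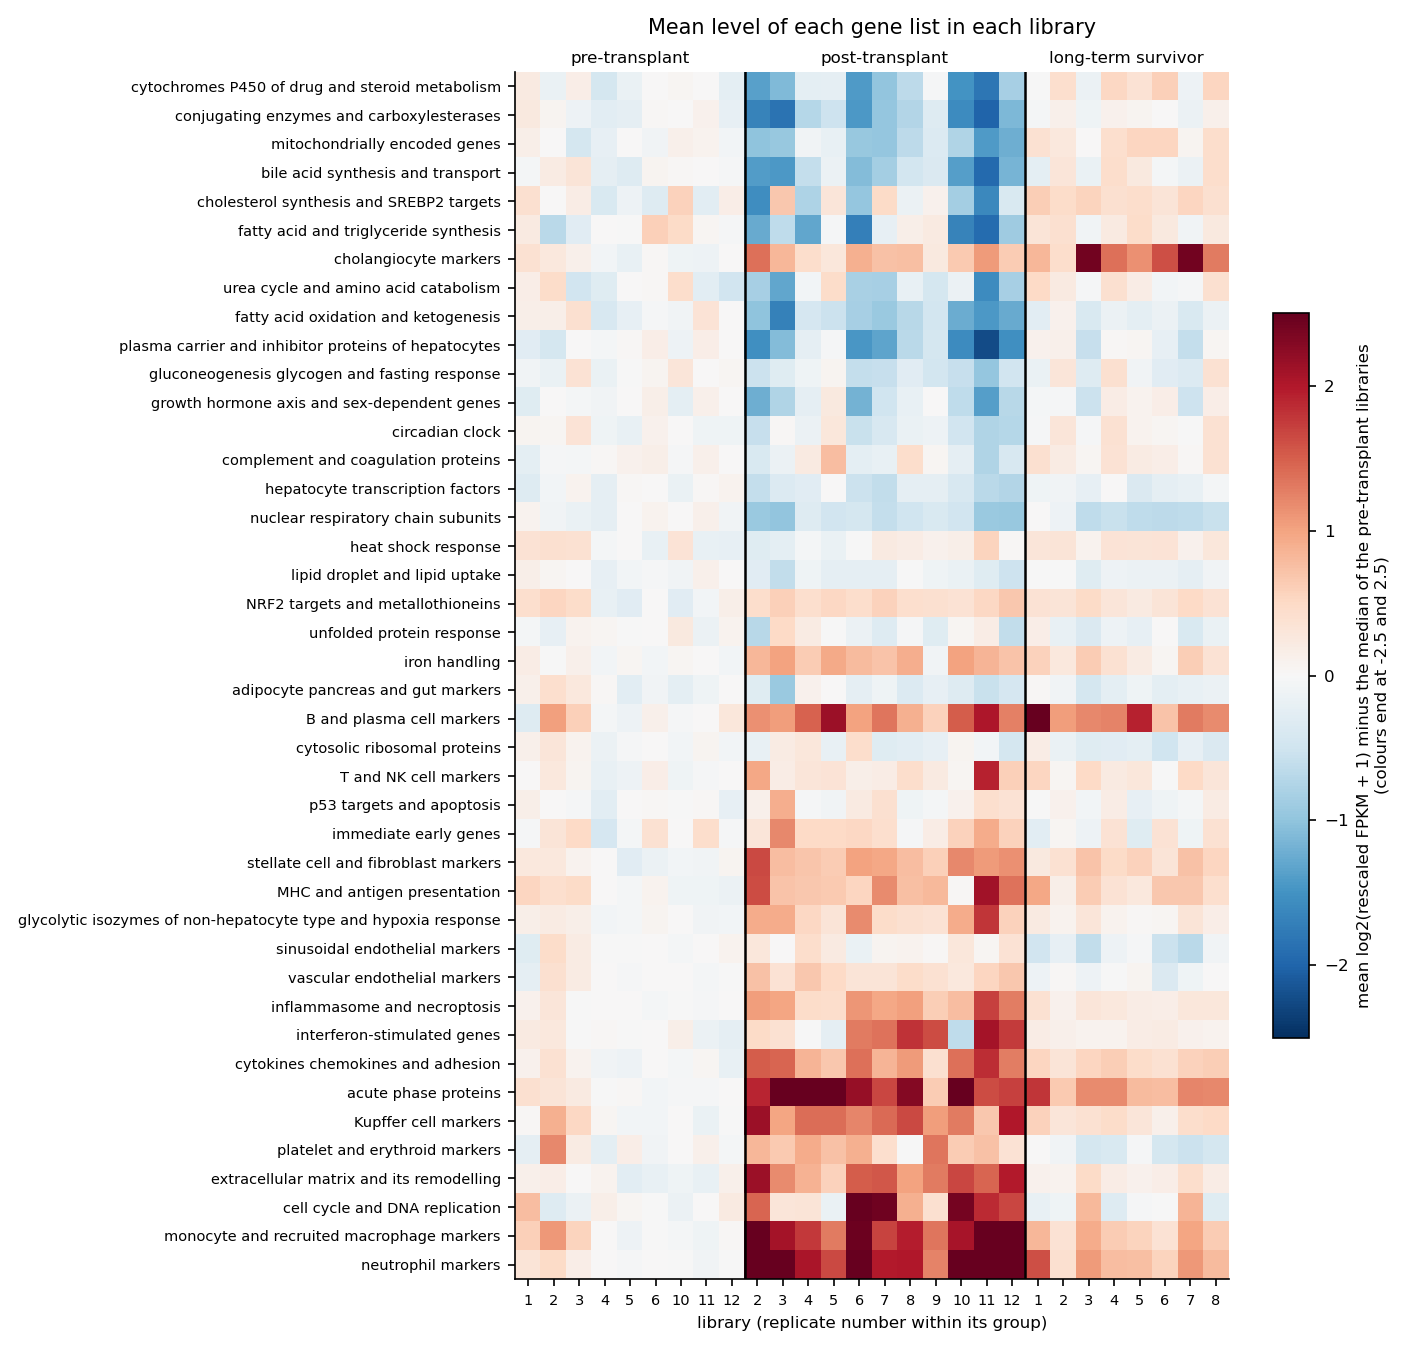
Mean level of 42 gene lists in each library as the difference from the median of 9 pre-transplant libraries, on the log2(rescaled FPKM + 1) scale, with red above and blue below that median and colours ending at -2.5 and 2.5. Columns are libraries, by group and replicate. All 8 long-term survivors lie above the pre-transplant range for acute phase and cholangiocyte genes, 7 of 8 for neutrophil, B and plasma cell, stellate cell and iron genes, and 7 of 8 lie below it for cytosolic ribosomal proteins. The iron list holds Lcn2, which is also in the acute phase list.

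Set beside the pre-transplant libraries, most genes that differed had a long-term survivor median inside the pre-transplant range. Of the 2383 genes that were higher, the long-term survivor median lay within the pre-transplant range for 76.2%, above it for 17.2% and below it for 6.504%. Of the 2155 that were lower, it lay within the range for 75.0%, above it for 10.4% and below it for 14.6%. These shares are a description, since the long-term survivor libraries enter both sides. The share over all genes tested was not computed. The shares therefore do not show that the genes that differed lay within the pre-transplant range more often than other genes. Genes whose long-term survivor median lay at pre-transplant level include Ces1d (88.8 and 109 FPKM), Alb (50806 and 48806), Timp1 (2.20 and 2.17) and Cdk1 (0.704 and 0.887). Others stayed between the groups: Lcn2 had a pre-transplant median of 2.20 FPKM, Orm1 of 393 against 1142 in long-term survivors, and S100a9 of 0.740 against 4.01. Mt-nd1 lay above its pre-transplant median of 5547 FPKM in long-term survivors and below it in post-transplant livers, by group medians. Tsx and Cldn7 had pre-transplant medians of 0.246 and 0.344 FPKM, below those of both other groups.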

How the data were processed

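Polyadenylated RNA of whole rat liver was sequenced, and the deposited table holds 1 value per gene and library. Its values were taken as FPKM made by the authors, which the header does not state and which was inferred from the values. Per the submitters' processing notes, HISAT2 2.0.5 was used, and 2 genome builds are listed without saying which served for what, mm10 and Rnor_6.0. No source used here gives the counting tool or strand setting. Coordinates are those of the deposited table.

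Of 32 value columns 28 were used. The 2 columns headed M5 and the 2 headed M16 were not used, because a header on 2 columns names no single sample. Low values stepped in whole reads in all libraries (within 0.02 reads, checked up to 5000 reads), which gave the reads per library. Values were rescaled by median-of-ratios factors over the Ensembl rows, and 11494 genes with 1 FPKM or more in at least 8 of 19 libraries were tested. limma 3.58.1 (R 4.3.3, trend and robust) was run on log2(value + 1) for 8 long-term survivor against 11 post-transplant libraries, two-sided, with Benjamini-Hochberg adjustment over all genes tested and a threshold of 0.05. The script was tested on simulated data. Tables were handled with Python 3.11.15, pandas 2.3.3 and numpy 2.4.6.

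The groups, gene lists and named genes were chosen with earlier results of these data known. Genes named by rule were the 10 that rose most, the 10 that fell most, at most 4 members per list by smallest adjusted p, the 6 most variable genes in each group, and Alb, Lcn2 and Col1a1. Further members, including those that did not pass, were chosen after their values were seen. Promoter windows are from RefSeq (GRCr8). Alternatives covered scaling, pseudocount, filter, model, voom on recovered reads, averaged close pairs and each library left out. Results of some named genes are not reported here.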

Additional observations from a re-analysis of the deposited data

Results flagged for a closer look

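In 12 of 182 named genes (6.59%) 1 long-term survivor library stood apart from the other 7, its gap to the nearest value on the log2 scale exceeding Dixon's critical share of the group's range. For independent, normally spread values chance alone gives about 1 in 20 groups such a library. Replicates 3 and 7, and replicates 4 and 8, are close pairs, so that rate may not hold here. The 11 post-transplant libraries are too many for this criterion. Of the 12, 8 concern long-term survivor replicate 1, each as the highest value. These were A2m (4.61 FPKM, next 0.769), Il1b (9.66, next 5.75), Slc16a3, a lactate carrier (1.23, next 0.422), Hmox1 (93.6, next 35.6), Asns (5.97, next 2.09), Fabp5, a fatty acid binding protein (38.8, next 22.7), LOC100912599 (70.9, next 5.92) and Igh-6 (105.2, next 26.04). Replicate 6 was lowest for Slc11a1 (3.42 FPKM, next 4.71) and for Rsad2, an antiviral gene (0.316, next 0.542), and highest for LOC100912405 (659.8, next 20.5). Replicate 2 was highest for Acadm (358 FPKM, next 294).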

How the results depend on the processing

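Without rescaling 1097 genes were higher and 4109 lower, and against a fold of 1.5 limma's treat called 257 genes (98 higher, 159 lower). Leaving out 1 library gave 3904 to 4826 genes called, 2076 to 2535 higher and 1828 to 2291 lower. In the other alternatives the count stayed within 1.5 times of 4538, from 3739 with the close pairs averaged to 5673 with array weights. Chosen after seeing the data, leaving out long-term survivor replicates 3 and 7 gave 4356, and leaving out long-term survivor replicate 1 with post-transplant replicate 9 gave 4770. Of 168 named genes that passed, 154 kept the call in every alternative other than treat in which they were tested. Another 14 lost it in at least 1, and 0 changed sign. Some genes were not tested in each alternative, such as Cftr with 29 and Il10 with 30 of 31. Signs changed in 3 genes that did not pass. Cpb1 was at -0.03566 without rescaling and between -0.003413 and 0.2041 with 1 library left out. Jchain was at -0.04183 without rescaling, -0.01417 with array weights, between -0.2005 and 0.3842 with 1 library left out, and -0.3578 without long-term survivor replicate 1 and post-transplant replicate 9. Kit was at 0.09021 with quantile normalization, 0.07457 with array weights, between -0.07807 and 0.04475 with 1 library left out, 0.004346 without long-term survivor replicates 3 and 7, and 0.0009299 without long-term survivor replicate 1 and post-transplant replicate 9. The cause was not tested. No paired analysis was possible because the labels give no replicate numbers shared between the groups. Genes under the filter were tested only in the alternative with no filter, which called 5099 genes.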

Other observations

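Hepatocytes differ along the lobule, and genes of either zone were looked at after the other values were seen. Of 13 tested genes of hepatocytes around the central vein 4 were higher and 1 lower (median 0.13), and of 12 tested genes of hepatocytes around the portal vein 9 were higher and 0 lower (median 0.89). The pericentral members moved in both directions, since Glul was lower (-1.24 ± 0.17, adjusted p = 5.34e-05) while Cyp2e1 (2.71 ± 0.34, adjusted p = 3.34e-05) and Gulo, an enzyme of vitamin C synthesis (1.71 ± 0.25, adjusted p = 8.61e-05), were higher by limma's test. Axin2, a target of Wnt signals, did not pass (0.12 ± 0.13, adjusted p = 0.45). Among the portal genes, Ass1, a urea cycle enzyme, lay at a median of 1129 FPKM in long-term survivors (range 1033 to 1472) against 645 in post-transplant livers (range 376 to 949), a change of 0.90 ± 0.17 (adjusted p = 0.000610), and Gls2, the liver glutaminase, changed by 1.26 ± 0.26 (adjusted p = 0.00109). The call of Ass1 ended with quantile normalization (adjusted p = 0.0548).

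The 2 ribosomal RNAs of mitochondria, looked up after the values of the 13 protein genes were seen, were higher as well. AY172581.9 lay between 279 and 517 FPKM in long-term survivors (median 414) and between 121 and 254 in post-transplant livers (median 183), a change of 1.06 ± 0.16 (adjusted p = 0.000129), and AY172581.24 lay at 232 to 506 FPKM with a median of 371 in long-term survivors, and at 80.1 to 201 with a median of 132 after transplantation, a change of 1.39 ± 0.21 (adjusted p = 0.000117), in both cases with no overlap. In platelet and erythroid markers 3 of 5 tested members were lower and 0 higher (median -0.99), with Alas2, the heme synthesis enzyme of red cell precursors, at -1.004 ± 0.27 (adjusted p = 0.00712). With no filter 3 of 10 were lower and 0 higher (median -0.37). Of 5 tested markers of fat, pancreas and gut, 1 was higher, Cela1 (0.78 ± 0.24, adjusted p = 0.0148), and that call ended without rescaling (adjusted p = 0.05268).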
